A study of Mus musculus with 8 samples.

Results

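Genes that mark regulatory T cells (Treg), 5 in all, were followed over 8 Illumina mouse bead arrays: Nrp1, Ikzf2 (Helios), Ikzf4 (Eos), Gpr83 and Izumo1r (also called Folr4). They were taken by gene symbol, which gave 9 of the 25697 probes and 5 of the 7916 genes tested. Nrp1 and Ikzf4 had 2 probes each, Izumo1r had 3, and Ikzf2 and Gpr83 had 1 each. All 5 genes and 8 of the 9 probes had a detection p-value under 0.05 on at least 2 arrays, which was the filter for testing. The second Ikzf4 probe was above background on 0 of 8 arrays and gives no value for Ikzf4.

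Each array held RNA pooled from several mice, males and females of 7 to 14 weeks on the C57B6 strain, all of them carrying the FOXP3GFP reporter. Control mice were MHCII+/- with FOXP3GFP, and the others were K14Aβb with FOXP3GFP, a line that per the labels lacks MHC class II outside the thymus. K14 is a keratin whose promoter is active in epithelial cells. Live TCRb+CD4+CD8-B220- cells of spleen or small intestine (gut) were sorted into GFP-positive Treg and GFP-negative conventional T cells (Tcon). There was 1 array for each of the 8 combinations of tissue, cell type and genotype, so no combination had a replicate, and errors come from the spread of matched pairs of arrays.

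Treg arise in the thymus or, from conventional T cells, in the periphery, and the gut is a site where many are induced. Nrp1, a co-receptor for semaphorins and vascular endothelial growth factor, and Helios, a zinc finger factor of the Ikaros family, are widely used in mice as marks of Treg of thymic origin, although activated and tissue T cells can carry them too. Eos, of the same family, acts as a corepressor partner of Foxp3. Gpr83, a G protein-coupled receptor, and Izumo1r, a GPI-anchored member of the folate receptor family that also serves as the egg's sperm receptor Juno, are genes enriched in Treg.

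Between 8822 and 9677 probes were above background per array, and median intensities ran from 211.4 to 250.2 units. The 7 T cell marker genes with a probe were all detected on all 8 arrays. Of the 2 CD8 T cell marker genes with a probe, Cd8a was at background on all 8 arrays. Although the sort was for CD8-negative cells, the other, Cd8b1, was detected on all 8 arrays. It read 12.56 to 13.38 (log2) in spleen and 9.80 to 11.89 in gut. Foxp3 had 3 probes, none of which separated the sorts. The brightest read 6.76 to 7.08 (log2) on all 8 arrays, close to background. Another was above background on the gut Treg array of the K14 label alone (427.6 units, against 183.0 to 259.9 on the other arrays), and the third on 0 arrays. The brightest probe of H2-Ab1, which encodes the MHC class II Aβ protein, read 10.995 to 12.25 on the control arrays and 10.94 to 13.38 on the arrays labelled K14. In 3 of 4 pairs the K14 array had the higher signal, at that probe and at the other H2-Ab1 probes detected on all 8 arrays. The dimmest H2-Ab1 probe went the other way and was lower on the K14 array in every pair. It was above background only on the gut Tcon array of control mice (7.37, against 5.71 on that of the K14 label). The probes were not placed against the modified allele here, so each genotype direction rests on the labels. On the gut Tcon array of control mice 9 of 9 exocrine pancreas and 5 of 5 gut epithelium markers were detected, against 1 to 3 and 2 to 3 on the other arrays. Myeloid and dendritic markers summed to 7568 to 8812 normalised units on the control arrays and to 12709 to 14445 on the arrays labelled K14, with 2 to 7 and 5 to 8 of 9 detected. Cst3 gave the largest part of each sum. It read 12.74 to 12.88 (log2) on the control arrays and 12.84 to 13.50 on those labelled K14. Within each cell type all 8 myeloid markers tested were on average higher on the arrays labelled K14, and 0 passed. B cell markers summed to 1644 to 5948 units on the control arrays and 5699 to 18296 on those labelled K14, higher in 4 of 4 pairs, with 3 to 4 and 3 to 5 of 6 detected. Endothelial markers summed to 1755 to 3659 and 1715 to 2659 units, with 2 to 3 and 1 to 4 of 5 detected. Myeloid and endothelial cells can also carry Nrp1, and B and myeloid cells carry H2-Ab1. The part of these cells in the results, the genotype differences included, was not tested.

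Gpr83 and Izumo1r are neighbours on chromosome 9, with no protein-coding gene between them in the RefSeq annotation of GRCm38.p6. Promoter windows (250 bases before to 50 after the RefSeq start) were given for 3 of the 5 genes; Ikzf2 and Ikzf4 had none. They are shown to set the neighbours, which differed in their genotype pattern, beside Nrp1, the gene that passed the test. The windows are chr8:128358823-128359122 on the plus strand, chr9:14859960-14860259 on the plus strand and chr9:14903718-14904017 on the minus strand, and capitals mark the motif matches named after them.
Nrp1: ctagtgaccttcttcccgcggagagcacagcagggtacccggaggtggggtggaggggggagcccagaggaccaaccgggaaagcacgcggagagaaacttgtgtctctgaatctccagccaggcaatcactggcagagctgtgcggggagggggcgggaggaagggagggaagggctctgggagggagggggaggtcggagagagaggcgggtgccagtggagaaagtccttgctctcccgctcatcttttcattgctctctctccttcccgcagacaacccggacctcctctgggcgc
Gpr83: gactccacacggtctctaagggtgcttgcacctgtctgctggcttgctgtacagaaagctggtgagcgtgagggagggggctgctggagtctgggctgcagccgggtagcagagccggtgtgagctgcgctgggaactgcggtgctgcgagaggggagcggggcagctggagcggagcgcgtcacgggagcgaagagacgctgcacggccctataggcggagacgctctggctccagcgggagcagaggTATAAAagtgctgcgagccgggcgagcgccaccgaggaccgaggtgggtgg
Izumo1r: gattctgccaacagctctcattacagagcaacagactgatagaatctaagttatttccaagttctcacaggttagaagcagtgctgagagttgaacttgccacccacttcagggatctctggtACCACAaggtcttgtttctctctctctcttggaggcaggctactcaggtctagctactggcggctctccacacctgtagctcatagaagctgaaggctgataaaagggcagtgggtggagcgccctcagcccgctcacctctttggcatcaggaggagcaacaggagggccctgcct
The Nrp1 and Gpr83 windows were rich in G and C (64.0% and 67.0%, with 14 and 24 CpG), while that of Izumo1r held 52.3% and 3 CpG, against a median of 52.7% over 32851 promoters. On both strands, forkhead letters TGTTTAC (in 3.65% of all promoters) and TGTTTGC (5.07%), STAT letters TTCNNNGAA (8.3%) and AP-1 letters TGANTCA (7.81%) matched none of the 3 windows. Runx letters TGTGGT (16.8%) matched that of Izumo1r once, on the minus strand, at -127 to -122 counted from 0 at the start site. TATAAA (13.6%), searched after the sequences were seen, matched that of Gpr83 at -1 to 4. No matches overlapped, and a match is a description of letters, not a site.

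The first comparison asks how far the 5 genes separate Treg from Tcon. Nrp1 rose most, 15.5-fold on average, and was the 1 member that passed the test. Ikzf2 and Ikzf4 were higher in Treg in every pair without passing, Izumo1r was higher in every pair by a smaller amount, and Gpr83 was higher in 3 of 4 pairs. By limma over all genes, 0.707% of the 7916 genes passed in either direction and 0.556% were higher in Treg, against 1 of 5 members. Of all genes, 11.8% were higher in Treg in 4 of 4 pairs, against 4 of 5 members, and 3.7% had every Treg array above every Tcon array, as Nrp1, Ikzf2 and Ikzf4 had. The 5 genes are known Treg marks, so these counts describe them and are not an independent finding.

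**Figure D1:**
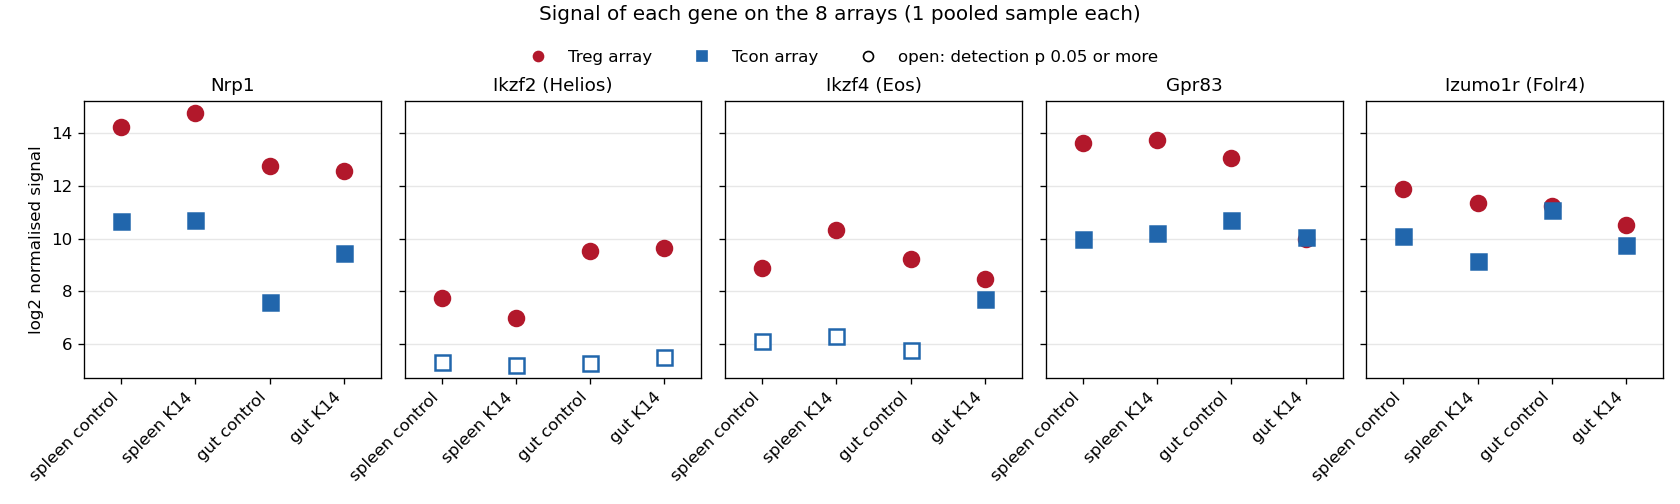
Normalised log2 signal (y axis) of the brightest probe of each gene in Treg (circles) and Tcon (squares) on the 8 arrays, by tissue and genotype (x axis); open symbols have a detection p-value of 0.05 or more. Gpr83 in gut Treg of the K14 label (9.99) lies beside its Tcon array (10.05), and Ikzf2 is open on all 4 Tcon arrays.

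Nrp1 intensity in spleen was 20787 units in control Treg and 24246 in Treg of the K14 label, against 1976 and 1598 in Tcon. In gut it was 7711 and 6615 in Treg, against 399.0 and 817.5 in Tcon. All 4 Treg arrays lay above all 4 Tcon arrays, and both cell types were brighter in spleen than in gut. The Treg minus Tcon difference of the normalised log2 values was 3.55 in spleen control, 4.05 in spleen K14, 5.13 in gut control and 3.09 in gut K14. Its mean was 3.95 ± 0.36 (SE, 4 pairs, limma adjusted p = 0.0405), higher in 4 of 4 pairs. The second Nrp1 probe gave 3.98 ± 0.38 (adjusted p = 0.0407 over all probes). The widest pair, gut control, contains the Tcon array with the pancreas markers, and the mean without it was 3.56. The call was lost without the detection filter (adjusted p = 0.0763), without pair blocks (adjusted p = 0.107) and with any 1 pair left out (adjusted p = 0.0990 without gut K14, 0.127 without gut control, 0.147 without spleen K14 and 0.203 without spleen control).

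Ikzf2 encodes Helios. Its intensity was 431.6 and 280.4 units in spleen Treg of control mice and of the K14 label, and 1046 and 1111 in gut Treg. On the Tcon arrays it read 161.6 and 147.6 in spleen and 169.4 and 182.4 in gut, and its probe was above background on 4 of 4 Treg arrays and 0 of 4 Tcon arrays. That pattern was seen for 0.227% of the genes tested. The log2 differences were 2.43 in spleen control, 1.81 in spleen K14, 4.23 in gut control and 4.13 in gut K14. Their mean of 3.15 ± 0.48 (SE, 4 pairs, adjusted p = 0.0830) did not pass. Since the Tcon readings are background, the fitted difference has no exact size. On the background-corrected scale Treg was at least 3.39-fold higher on average, set against the lowest signal still above background on each Tcon array. By pair the bound was 2.02-fold in spleen control, 1.08-fold in spleen K14, 7.77-fold in gut control and 7.75-fold in gut K14. These bounds hold on this scale alone: values that still contain background give smaller differences, 1.24 log2 with the authors' deposited values. The ratios of deposited intensities were 2.67 in spleen control, 1.90 in spleen K14, 6.18 in gut control and 6.09 in gut K14.

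Ikzf4 encodes Eos. Its intensity was 727.3 and 1212 units in spleen Treg (control, then K14) and 877.2 and 621.3 in gut Treg. In Tcon it read 243.6, 245.1 and 221.2 on the spleen control, spleen K14 and gut control arrays, which are at background, and 379.6 on the gut array of the K14 label, which alone among the Tcon arrays was above it. The lowest Treg array still lay above the highest Tcon array, by 0.76 on the log2 scale. Pair differences were 2.78, 4.03, 3.42 and 0.76 in spleen control, spleen K14, gut control and gut K14. The mean was 2.75 ± 0.56 (SE, 4 pairs, adjusted p = 0.134) and did not pass. The gut K14 pair was the lowest, and part of each other difference is against background.

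Gpr83 gave the clearest exception. Its intensity was 13988 and 11789 units in spleen Treg of control mice and of the K14 label, 9353 in gut Treg of control mice and 1346 in gut Treg of the K14 label. The 4 Tcon arrays read 1261 and 1186 in spleen and 1842 and 1140 in gut. Of the 4 Treg arrays 3 lay above every Tcon array, while gut Treg of the K14 label lay within the Tcon range. The pair differences on the log2 scale were 3.61 in spleen control, 3.52 in spleen K14, 2.35 in gut control and -0.06 in gut K14. The mean of 2.36 ± 0.67 (SE, 4 pairs, adjusted p = 0.209) did not pass, and was 3.16 without the gut K14 pair.

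Izumo1r differed least between the sorts. The brightest of its 3 probes read 4427 and 2250 units in spleen Treg (control, then K14), against 1344 and 649.4 in spleen Tcon. In gut it read 2880 and 1840 in Treg, against 2357 and 951.1 in Tcon. Treg and Tcon overlapped: in these units gut control Tcon lay above both Treg arrays of the K14 label, and after normalization above the gut one of them (11.09 against 10.53, with 11.33 in spleen). Pair differences were 1.78, 2.18, 0.13 and 0.78 in spleen control, spleen K14, gut control and gut K14, with a mean of 1.22 ± 0.38 (SE, 4 pairs, adjusted p = 0.243). The other probes gave 1.28 ± 0.43 and 1.56 ± 0.30, neither past the test (adjusted p = 0.274 and 0.136).

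**Figure D2:**
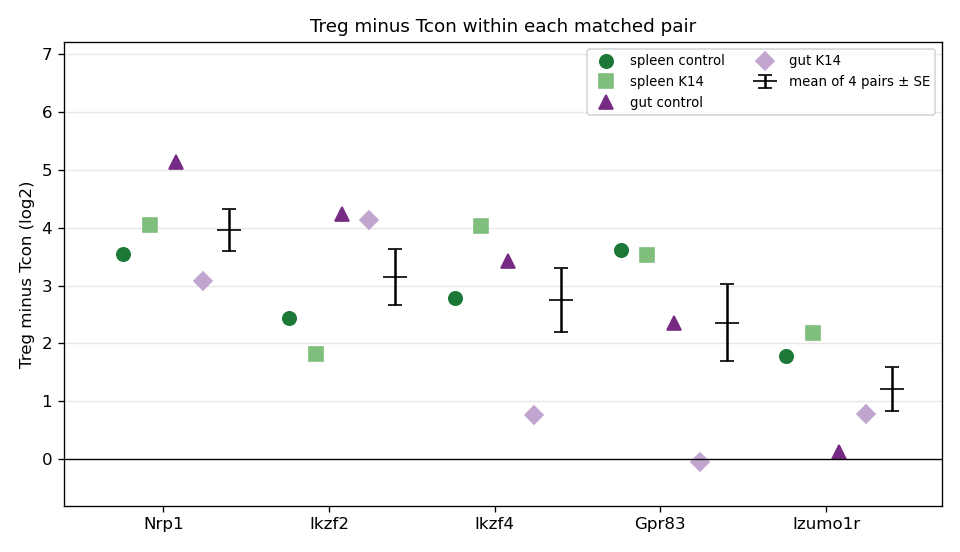
Treg minus Tcon difference of log2 values (y axis) of the 5 genes (x axis) in each of the 4 matched pairs, with limma's mean and standard error as a black bar. Nrp1 and Ikzf2 lie between 1.81 and 5.13 in all pairs, whereas in the gut K14 pair Ikzf4 and Gpr83 lie at 0.76 and -0.06.

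The second comparison asks which of the 5 genes differ when MHC class II is missing outside the thymus. In gut Treg, Gpr83 was 8.23-fold lower on the array labelled K14, while Nrp1, Ikzf2 and Ikzf4 there stayed above every Tcon array. For Ikzf4 the margin was 0.76 on the log2 scale. Izumo1r was lower in every pair of either cell type. No difference passed. By limma 0% of all genes passed within Treg, within Tcon, over all 4 pairs, between cell types and between tissues, and 499, 492, 634, 386 and 493 genes had an unadjusted p under 0.05 in these fits. In such bulk samples fewer cells carrying a transcript and less of it per cell cannot be told apart.

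Nrp1 differed by 0.53 on the log2 scale in spleen Treg and by -0.19 in gut Treg, K14 minus control. The mean within Treg was 0.17 ± 0.53 (SE, 2 pairs with the spread pooled over cell types, adjusted p = 0.985), with a 95% interval from -1.26 to 1.61. In Tcon the difference was 0.03 in spleen and 1.86 in gut, where the control array is the one with the pancreas markers. Ikzf2 differed by -0.74 in spleen Treg and 0.10 in gut Treg, a mean of -0.32 ± 0.31 (adjusted p = 0.913, interval -1.17 to 0.53).

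Ikzf4 went both ways: 1.45 higher in spleen Treg and -0.73 in gut Treg of the K14 label, a mean of 0.36 ± 0.71 (adjusted p = 0.971). In gut Tcon it was 1.92 higher, again against the control array with the pancreas markers, and in spleen Tcon 0.19 higher with both readings at background.

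Gpr83 differed by 0.12 and 0.21 in the spleen pairs (Treg, then Tcon) and by -3.04 and -0.63 in the gut pairs. The gut Treg value ranked 51st lowest of 7916 genes in that pair, where 1.97% of genes were lower by at least 4-fold. It comes from 1 array against 1 array and 1 probe, so it has no replicate check. The mean within Treg was -1.46 ± 0.83 (adjusted p = 0.864, interval -3.71 to 0.79), and was 0.12 without the gut Treg pair. The difference between the gut and the spleen genotype effects, fitted after the values were seen, was -2.00 ± 0.89 (adjusted p = 0.835) and was -0.80 without the gut Treg pair. In the same gut Treg pair Nrp1 and Ikzf2 differed by -0.19 and 0.10, and Klrg1, an inhibitory receptor of effector cells that was higher in Treg, read 13.24 in control and 14.67 on the array labelled K14. Some other Treg genes were also at or near the Tcon level in the gut K14 pair. The members Ikzf4 and Izumo1r stood at 0.76 and 0.78 there, against 3.42 and 0.13 in the gut control pair. Of 12 further Treg core genes 9 were higher and 3 lower in Treg in the gut K14 pair. They ran from Il2rb at -0.39, Foxp3 at -0.28 and Socs2 at -0.24 to Tnfrsf9 at 4.49. In the gut control pair 11 of the 12 were higher and 1 lower, Foxp3 at -0.17. The Foxp3 readings are close to background in both sorts. The median of the 12 was 1.45 in the gut K14 pair and 1.34 in the gut control pair. Il2rb and Socs2 were named after their values were seen.

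Izumo1r was lower on the array labelled K14 in 4 of 4 pairs, as were 8.62% of all genes. In Treg it differed by -0.53 (spleen) and -0.69 (gut), and in Tcon by -0.93 and -1.35. The mean over the 4 pairs, a fit added after the values were seen, was -0.87 ± 0.19 (SE, adjusted p = 0.470, unadjusted p = 0.00570). Within Tcon it was -1.14 ± 0.24 (adjusted p = 0.614) and within Treg -0.61 ± 0.24 (adjusted p = 0.816). All 3 probes were lower in all 4 pairs. The dimmest, which was above background on 2 of 4 Tcon arrays, gave a mean of -0.99 ± 0.27 over the 4 pairs (adjusted p = 0.536). Of the neighbours on chromosome 9, Izumo1r was thus lower in every pair, while Gpr83 was lower in the gut pairs and slightly higher in the spleen pairs.

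The third comparison sets gut against spleen. Nrp1 was lower in gut than in spleen in both cell types and both genotypes, Ikzf2 was higher in gut Treg than in splenic Treg, and Izumo1r was lower in gut Treg but higher in gut Tcon. None of these passed the test within a cell type. By limma 0% of genes passed within Treg (1224 had an unadjusted p under 0.05) and 0.455% within Tcon. The Treg minus Tcon difference of the tissue effects gave 0% (555 at an unadjusted p under 0.05). Any effect of making cell suspensions from each tissue and the tissue itself cannot be told apart.

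**Figure D3:**
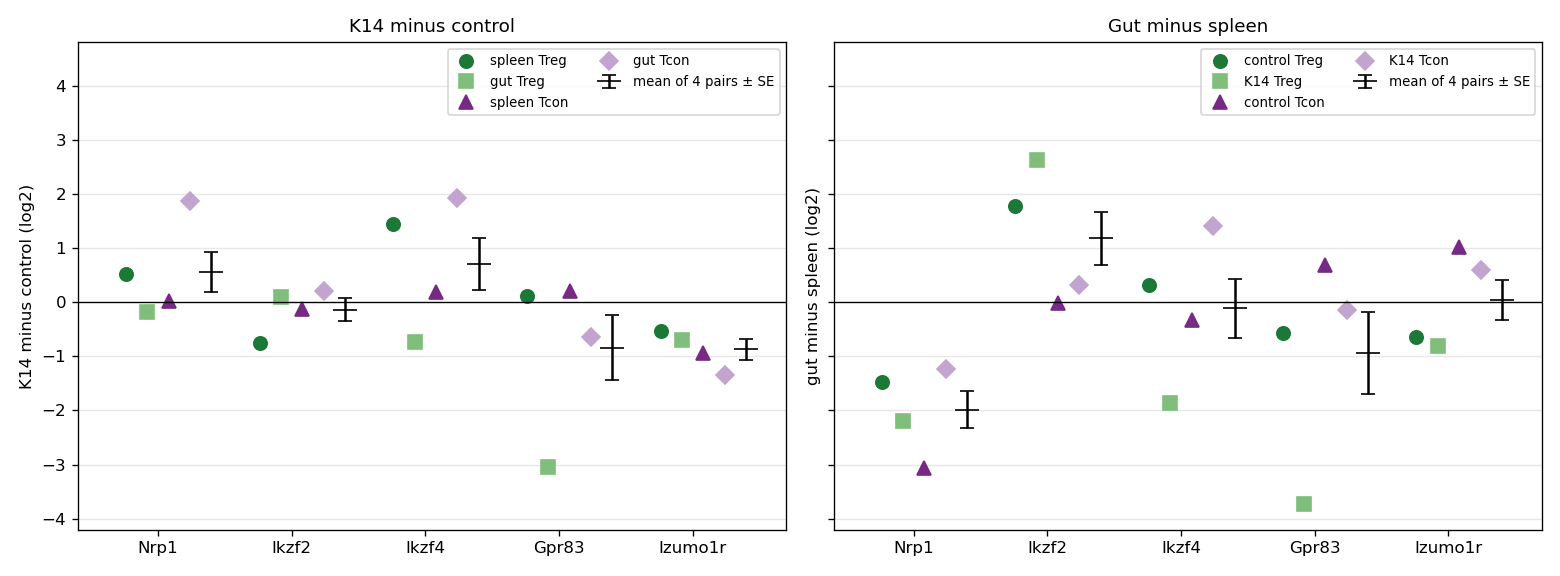
Differences of log2 values (y axes) of the 5 genes (x axes), K14 minus control on the left and gut minus spleen on the right, each in its 4 matched pairs, with limma's mean and standard error in black. Izumo1r lies below 0 in all 4 genotype pairs and Nrp1 in all 4 tissue pairs, and Gpr83 stands at -3.04 (K14 minus control, gut Treg) and -3.73 (gut minus spleen, K14 Treg).

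The gut minus spleen differences of Nrp1 were -1.48 in control Treg, -2.19 in K14 Treg, -3.06 in control Tcon and -1.23 in K14 Tcon, lower in 4 of 4 pairs as were 20% of all genes. The control Tcon pair, the widest, contains the gut array with the pancreas markers, and so do the Tcon and 4-pair means. The mean was -1.83 ± 0.53 in Treg (SE, 2 pairs, adjusted p = 0.258) and -2.15 ± 0.53 in Tcon (adjusted p = 0.183). Over all 4 pairs, a fit added after the values were seen, it was -1.99 ± 0.34 (adjusted p = 0.0580), where 2.37% of genes passed. With that fit Nrp1 passed on the authors' deposited log2 values (-1.68, adjusted p = 0.0277) and under 3 other settings. With the control Tcon pair left out, the mean of the fit was -1.63. The 2 gut Treg arrays still lay above all 4 Tcon arrays.

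Ikzf2 went the other way from Nrp1 in Treg. It was higher in gut by 1.79 in control Treg and by 2.63 in K14 Treg, a mean of 2.21 ± 0.31 (SE, 2 pairs, adjusted p = 0.123, unadjusted p = 0.00171), and it passed without the block (adjusted p = 0.0318). In Tcon the readings were background in both tissues, and in spleen K14 Treg the reading was close to it (280.4 units, detection p-value 0.038). The gut to spleen ratios of deposited intensities were 2.42 in control Treg and 3.96 in K14 Treg. Over the other settings the Treg mean ran from 1.16 to 2.63. The difference between Treg and Tcon in the tissue effect was 2.06 ± 0.44 (adjusted p = 0.538). Among Treg arrays the order of Ikzf2 was gut K14, gut control, spleen control and spleen K14, whereas for Nrp1 it was spleen K14, spleen control, gut control and gut K14. These are single arrays, and no spread tells neighbours in either order apart.

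Gpr83 was lower in gut Treg by -0.57 in control and -3.73 in K14, a mean of -2.15 ± 0.83 (adjusted p = 0.335). The K14 value ranked 40th lowest in its pair, where 3.76% of genes were lower by at least 4-fold, and without that pair the mean was -0.57. Ikzf4 was 0.32 higher in gut Treg of controls and -1.86 in gut Treg of the K14 label (mean -0.77 ± 0.71, adjusted p = 0.638).

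Izumo1r was lower in gut Treg, by -0.64 in control and -0.80 in K14, and higher in gut Tcon, by 1.01 and 0.60. The control Tcon value again uses the gut array with the pancreas markers. The means were -0.72 ± 0.24 (adjusted p = 0.296) and 0.81 ± 0.24 (adjusted p = 0.230), and their difference was -1.53 ± 0.35 (adjusted p = 0.554). The second probe gave a difference of -1.66 ± 0.33 (adjusted p = 0.524 over all probes). The third gave -0.66 ± 0.59, and its genotypes split, with Treg at -0.63 in control and 0.16 in K14 and Tcon at 1.03 and -0.19. That probe carries another RefSeq accession of the gene than the other 2 and was at background in both Tcon arrays of the K14 label.

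**Figure D4:**
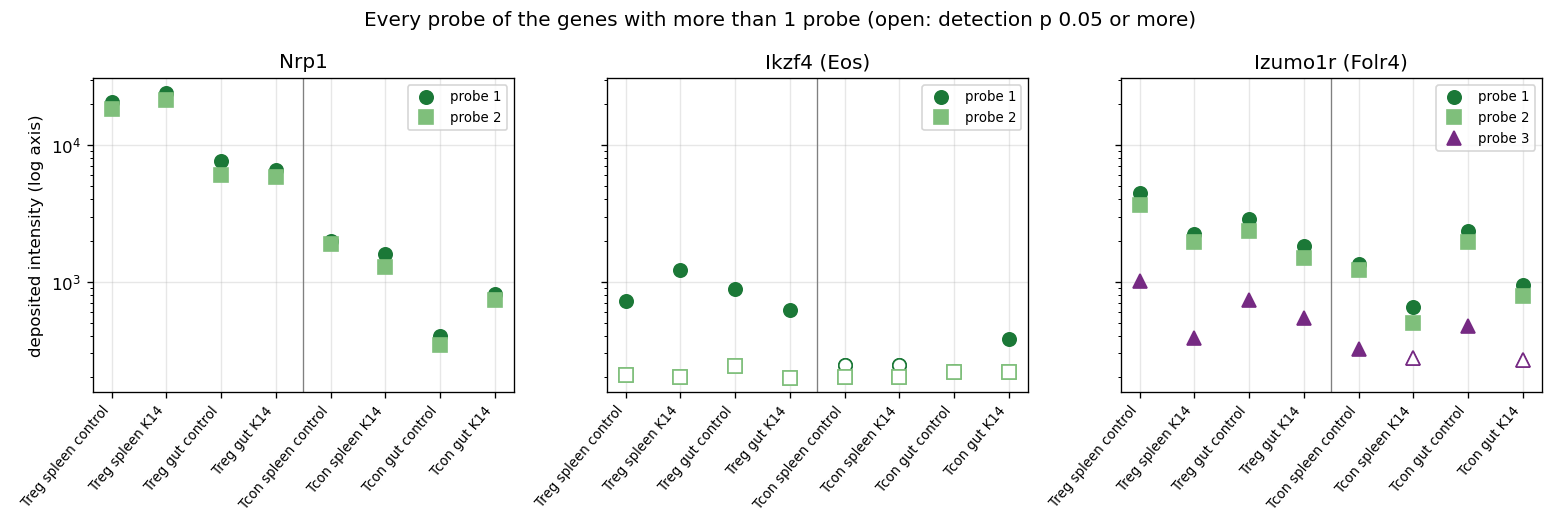
Deposited intensity (log axis) of every probe of Nrp1, Ikzf4 and Izumo1r on the 8 arrays (x axis, Treg left of the grey line and Tcon right of it); open symbols have a detection p-value of 0.05 or more. The 2 Nrp1 probes track each other from 341.9 to 24246 units, the second Ikzf4 probe is open on all arrays, and the third Izumo1r probe is open in Tcon of the K14 label.

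Likeness of profile was measured as the root mean square distance over the 8 arrays between log2 values centred on each gene's mean, and 3 genes were named per member. Closest to Nrp1 were Nrn1, a neuronal growth protein gene (0.83), Swap70 (0.96) and Il2ra, which encodes CD25 (1.03). Closest to Ikzf2 were the gap junction gene Gjb2 (0.51), the titin gene Ttn (0.51) and Tnfrsf9, which encodes the costimulatory receptor 4-1BB (0.57). Ikzf4 had Csrp2 (0.50), the actin-capping gene Capg (0.65) and again Il2ra (0.66). Nearest to Gpr83 were Maneal (0.52), Lad1 (0.55) and Zfp738 (0.62), each of which read 5.78 to 6.12 in gut Treg of the K14 label and 7.22 to 9.31 on the other Treg arrays. Those low readings lie under the lowest signal above background on any array (6.58), whereas Gpr83 read 9.99 there. The genes were picked for a like profile, so the shared low reading follows in part from the choice. Izumo1r had Zbtb3 (0.29), Pou2f2, an octamer-binding factor (0.32), and Wdr59 (0.36). The distance is a description over these arrays. Among the members the closest were Gpr83 and Izumo1r (1.05) and the farthest Nrp1 and Izumo1r (1.97). The distance is not scaled for the size of a profile. The 1.05 exceeds the SD of the Izumo1r profile (0.91), so it does not show a shared pattern.

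Of the other Ikaros family genes Ikzf1 and Ikzf5, 2 of 3, were tested. Ikzf1, the Ikaros gene, was lower in Treg by -1.25 ± 0.17 log2 in the 4 pairs (SE, adjusted p = 0.0579) and did not pass, and Ikzf5 stood at 0.02. Of 10 corepressor partners 6 were tested and 0 passed, with a median Treg minus Tcon difference of -0.06 against -0.03 over all genes. Rbbp7 stood at -0.67, Chd4 at 0.25, and the deacetylase genes Hdac2 and Hdac1 at -0.22 and -0.09. Of 21 neuropilin relatives, ligands and partners 9 were tested and 0 passed (median -0.06). Sema4a, a semaphorin that binds Nrp1 on Treg, stood at -2.72 (adjusted p = 0.132) and read 9.92 and 8.37 in gut Treg against 12.74 and 13.33 in splenic Treg. Plxna2, a plexin co-receptor of semaphorins, was above background on the 2 gut Treg arrays and on 0 of 4 Tcon arrays. Flt1, a receptor for vascular endothelial growth factor, stood at -1.91 and Vegfb, a ligand, at -0.97. Flt1 was above background on 1 Treg and 3 Tcon arrays, so its difference is largely against background and has no exact size. Of the folate list Slc19a1, the reduced folate carrier, was tested alone and stood at 0.65.

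Of 15 further Treg core genes 12 were tested, 11 were higher in Treg and 5 passed, with a median of 2.33. The 1 lower was Foxp3 (-0.16), whose readings are close to background. The receptor genes Tnfrsf18 and Tnfrsf9 rose by 2.08 and 3.63, the interleukin 35 subunit Ebi3 by 3.79 and Capg by 2.67. Il2ra passed (adjusted p = 0.0409) but was above background on 4 of 4 Treg and 0 of 4 Tcon arrays, so its size is a bound, at least 3.63-fold higher. Tnfrsf4, which encodes the costimulatory receptor OX40, stood at 3.09 (adjusted p = 0.0865). Within Treg, K14 minus control, 4 of these 12 were higher and 8 lower with a median of -0.02, the same as over all genes, and 0 passed. Among genes described as higher in thymic Treg, 4 of 5 were tested. Cd83 rose by 3.66 and passed, Swap70 stood at 2.90 (adjusted p = 0.126), Satb1 at -0.92 and Pdcd1 at -0.0012. Of the genes described as higher in induced Treg, 5 of 7 were tested and 0 passed. Igfbp4 stood at -3.28, the cytokine Il10 at 2.42, Dapl1 at -1.85 and Havcr2 at 1.37. Dapl1 was above background on 1 Treg and 3 Tcon arrays, so its difference too has no exact size. In Treg, gut minus spleen, Igfbp4 stood at -3.03 and Il10 at 5.93. Of the tissue Treg list 5 of 7 were tested, all 5 were higher in Treg and Klrg1, at 5.55, passed; Irf4 stood at 1.31 and Gata3 at 0.92. Prdm1 was above background on 2 Treg and 0 Tcon arrays and has no fold.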

How the data were processed

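RNA of 8 pooled sorts was hybridised to 1 array each. The authors deposited a linear probe intensity and a detection p-value per probe and array, per the file headers, with no background correction or normalization stated. A log2 table deposited by the authors covers the same arrays (medians 8.28 to 8.30, the same rank order as the intensities, Spearman correlation 1), whose normalization is not given in the sources used here, so these served as an alternative. In R 4.3.3 with limma 3.58.1, background was removed by nec (normexp on the detection p-values, offset 16), followed by quantile normalization and log2. Probes with a detection p-value under 0.05 on at least 2 of 8 arrays and a gene symbol were kept (10021), and the brightest stood for its gene (7916 genes). Of 25697 probes 23978 had 1 symbol, 0 several and 1719 none here.

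Treg minus Tcon was fitted over 8 arrays with 4 pairs (tissue by genotype, from the labels) as blocks. Genotype and tissue effects were fitted per cell type with blocks, leaving 2 residual degrees of freedom. P-values of the moderated test in limma were adjusted by Benjamini-Hochberg over all genes at 0.05. Fits over all 4 genotype or tissue pairs, and of the genotype effect between tissues, were added after the values were seen. Samples were pools, so p-values measure the spread between these arrays, and their number limits the precision. With 4 pairs an exact sign-flip test could not go below 0.125. The pipeline was tested on simulated data. The members and lists were chosen with earlier results of these data known. Named genes are the members, the 3 nearest profiles of each, and up to 4 genes per list with the largest Treg minus Tcon difference plus any past the test. Tried as alternatives were an offset of 50, other detection filters, median centring, no background correction, the authors' values, no block, every probe tested and each pair left out. Probe sequences were not used here.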

Additional observations from a re-analysis of the deposited data

Results flagged for a closer look

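The gut minus spleen difference of Izumo1r ran in opposite directions in the cell types: -0.64 and -0.80 in the 2 Treg pairs, 1.01 and 0.60 in the 2 Tcon pairs. The 1.01 uses the gut control array with the pancreas markers. The gap was -1.53 ± 0.35 (SE, limma adjusted p = 0.554). The third probe showed the same split in the control pairs (-0.63 in Treg, 1.03 in Tcon). In the K14 pairs it did not (0.16 and -0.19), with both K14 Tcon readings at background.

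For Gpr83 both gut pairs were lower and both spleen pairs slightly higher on the arrays labelled K14, a gap between tissues of -2.00 ± 0.89 (adjusted p = 0.835), most of it from the gut Treg pair at -3.04. For Ikzf2 the signs were the reverse of that, with a gap of 0.59 ± 0.37 (adjusted p = 0.900), and in Tcon its readings were background. None of the 3 gaps passed.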

How the results depend on the processing

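Of 630 recomputed member differences 589 kept their direction and their side of the threshold, 6 were no longer past it, 5 newly passed and 30 changed sign. Part of that count was fixed in advance. The block and filter settings left the differences themselves unchanged, and leaving out a pair of 1 cell type left the estimate of the other unchanged. Only Nrp1, Treg minus Tcon, was past the threshold at the start, and it was lost in 6 of 13 settings. For Treg minus Tcon no member changed sign; Nrp1 ranged from 3.55 to 4.24 and Ikzf2, which no setting brought past the test, from 1.24 to 3.60. The 56 genes past that test became 100 with the authors' values and without background correction, 2 without the detection filter, 27 without the block and 0 with any 1 pair left out. The member count of 1 became 0 without the filter, without the block and with any pair left out. Gut against spleen in Treg gave 88 genes and 1 member (Ikzf2) without the block, against 0 and 0. In Tcon the 36 genes became 67 without background correction, 63 at an offset of 50, 64 with detection on at least 4 arrays, 166 without the block, and 0 without the filter, with every probe tested or with a pair left out. Over all 4 tissue pairs the 188 genes became 468 with the authors' values, 409 without background correction, 288 at an offset of 50, 322 with detection on at least 4 arrays, 125 without the filter and 0 to 33 with a pair left out. The member count of 0 became 1 (Nrp1) under the first 4 of these and stayed 0 with a pair left out.

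With a pair left out, these genotype differences changed sign: in Treg Gpr83 (-3.04 to 0.12), Nrp1 (-0.19 to 0.53), Ikzf2 (-0.74 to 0.10) and Ikzf4 (-0.73 to 1.45), and in Tcon Ikzf2 (-0.12 to 0.20) and Gpr83 (-0.63 to 0.21). Between cell types they were Ikzf4 (-1.79 to 0.39), Nrp1 (-1.69 to 0.14), Gpr83 (-2.83 to 0.33) and Ikzf2 (-0.78 to 0.064), over all 4 pairs Ikzf2 (-0.26 to 0.059), and between tissues Nrp1 (-0.46 to 1.58), Izumo1r (-0.62 to 0.038) and Ikzf4 (-1.55 to 1.10). The tissue differences that did were Ikzf4 in Treg (-1.86 to 0.32), and in Tcon Gpr83 (-0.15 to 0.69), Ikzf2 (-0.016 to 0.31) and Ikzf4 (-0.32 to 1.41). Between cell types it was Nrp1 (-0.60 to 1.23), and over 4 pairs Izumo1r (-0.28 to 0.32) and Ikzf4 (-0.62 to 0.47). With the authors' values Ikzf4 turned to 0.0092 (genotype, between cell types), Nrp1 to -0.34 (tissue, between cell types; -0.17 without background correction) and Izumo1r to -0.021 (tissue, 4 pairs), and the third Izumo1r probe gave -0.18 (genotype, between cell types). None of the 30 passed the test where its sign changed (lowest adjusted p = 0.556), and the cause was not tested.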
